A study of Bos indicus x Bos taurus with 78 samples.

Results

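The 5 cattle microRNAs bta-miR-340, bta-miR-885, bta-miR-708, bta-miR-1343-3p and bta-miR-132, named below without the species prefix, were followed across the degrees of dark-cutting in loin muscle, out of 1030 bovine miRNA rows in the count table. They were picked by name because their levels moved with the labelled degree among dark-cutting steers in an earlier look at the same counts. Every difference between degrees, and every difference of one degree from normal steers, is therefore a description with no test. What did not enter that choice was tested: all dark-cutting against normal steers, and the way the 5 miRNAs varied among the normal steers.

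Small RNA had been sequenced from Longissimus lumborum biopsies, a loin muscle, of 78 male Bos indicus x Bos taurus steers. The 25 dark-cutting steers carried labelled fractions of 1/4 (8 steers), 1/3 (9 steers), 1/2 (3 steers), 2/3 (4 steers) and 3/4 (1 steer), and 53 steers were labelled normal. The labels name no treatment, age, breed share or batch for any group, and do not say what the fraction measures. Below, the 8 steers of 1/2, 2/3 or 3/4 are called the higher degrees and the 17 steers of 1/4 or 1/3 the lower degrees.

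MicroRNAs are short RNAs that pair through their seed, a stretch near the 5′ end, with target messengers and lower their translation or stability. Meat of dark-cutting cattle stays dark and firm after slaughter, which is known to happen when muscle glycogen is low beforehand. In humans miR-340, miR-708 and miR-885 lie in introns of protein-coding genes, those of RNF130, TENM4 and ATP2B2. miR-885 is also known as a blood marker of liver injury. miR-132 is made from one transcript with miR-212 and is induced by CREB in neurons, as shown in rodents. miR-1343-3p has been described in human airway cells as a repressor of TGF-beta receptors.

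Total counts per library lay between 2687185 and 4370459 in dark-cutting steers and between 1427817 and 4535675 in normal steers. The muscle miRNA miR-1 held 79.6% to 88.1% of the counts in dark-cutting and 72.3% to 88.6% in normal steers. All 6 muscle fibre miRNAs checked were detected, together at 836116 to 899771 CPM, that is counts scaled to 1000000 per library, in dark-cutting and 762000 to 902058 CPM in normal steers, as the tissue label has it. The lists for blood, vessel, fibroblast and nerve cells were also detected in full. In a biopsy, fewer cells of a type and less RNA per cell cannot be told apart. The title numbers of the steers fall into a range under 600 (8 dark-cutting and 18 normal steers) and one of 600 or above (17 dark-cutting and 35 normal steers). Of the higher degrees 2 steers were numbered under 600 and 6 at 600 or above, and of the lower degrees 6 and 11.

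All 5 miRNAs were rare. By mean CPM over the 78 steers, miR-885 ranked 129th of the 1030 rows at 26.3 CPM, miR-340 169th at 9.27 CPM, miR-1343-3p 183rd at 7.08 CPM, miR-708 202nd at 4.85 CPM and miR-132 248th at 2.47 CPM. These are shares of reads, and ligation of adapters differs among miRNAs, so the order need not be that of molecules. The mean count behind a value was 83.9 for miR-885, 30.2 for miR-340, 23.1 for miR-1343-3p, 15.6 for miR-708 and 7.86 for miR-132. A single normal steer had a count of 0 for miR-132, which allows up to 3 counts in that library. All 5 passed every low-count filter used.

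How far counting noise alone could spread such values differed among the 5. For these coefficients CPM was also scaled by trimmed mean of M values, unlike the CPM of the ranks above. Over normal steers miR-885 had a coefficient of variation of 51.6% in CPM, where a Poisson count of its mean size would give 10.8%. It was also the most variable of the 5 beyond counting, with a biological coefficient of variation of 46.3%, the 30th highest of 272 miRNAs. miR-340 was the steadiest, at 27.6% in CPM against 18.4% from counting, and its biological coefficient of variation of 23.5% ranked 182nd. For miR-708 the CPM figures were 45.5% and 25.6%, for miR-1343-3p 34.8% and 21.6%, and for miR-132 52.96% and 36.9%. Counting error was thus a large share of the spread of miR-132 and of miR-340, and a small one of that of miR-885.

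miR-340 was lower in the higher degrees, and its median fell most between degree 1/3 and degree 1/2. Its log2 CPM, scaled by trimmed mean of M values (TMM) with a prior count of 2, ran from 2.41 to 4.15 in normal steers with a median of 3.27. Steers of degree 1/4 had 2.89 to 4.01 with a median of 3.29, and steers of degree 1/3 had 3.23 to 3.69 with a median of 3.34. The lower degrees thus sat where the normal steers did, with 11 of 17 above the normal median. The 3 steers of degree 1/2 had 3.15, 2.83 and 2.94 log2 CPM, and the 4 steers of degree 2/3 had 2.65, 3.07, 2.56 and 2.89. The single steer of degree 3/4 was at 2.80. Whether the fall is a step or a gradual trend was not tested.

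All 8 steers of the higher degrees were below the normal median of miR-340 and below the median of the lower degrees. Of these 8, 4 were lower than any steer of the lower degrees, while 3 of the 17 lower-degree steers were no higher than the highest of the 8. None of the 8 lay outside the normal range, and 19 of 53 normal steers were at or below the highest of them. Behind these values stood 17 to 43 counts in the higher degrees, 19 to 60 in the lower degrees and 12 to 69 in normal steers.

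miR-885 had its largest gap from normal steers at degree 1/2, but with very unequal steers. Normal steers ran from 3.24 to 6.19 log2 CPM with a median of 4.66. Degree 1/4 spanned 3.82 to 5.10 with a median of 4.64, and degree 1/3 spanned 2.81 to 5.69 with a median of 4.72. In degree 1/2, replicate 1 was at 4.97, above the normal median, and the other 2 steers were at 3.22 and 3.47. Degree 2/3 had 3.89, 4.63, 3.90 and 4.21 log2 CPM, and degree 3/4 had 4.03. So 7 of the 8 higher-degree steers were below the normal median, 1 of them below every normal steer, and the lower degrees enclosed the whole range of the higher ones. At its low end that enclosure rests on 1 steer of degree 1/3, at 2.81. The next lowest of the lower degrees was at 3.82, above the higher-degree steers at 3.22 and 3.47.

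miR-708 had low values at degrees 2/3 and 3/4. Normal steers ran from 0.95 to 3.57 log2 CPM with a median of 2.33, degree 1/4 from 0.71 to 3.07 with a median of 2.67, and degree 1/3 from 1.57 to 2.77 with a median of 2.49. The steers of degree 1/2, at 2.54, 2.27 and 2.41, were spread about the normal median. Those of degree 2/3, at 1.97, 2.11, 1.77 and 1.36, and that of degree 3/4, at 2.04, were all below it. With 6 to 16 counts per library in these 5 steers, single values are coarse, and all 5 lay within the normal range.

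miR-1343-3p was higher in some steers of the higher degrees and not in others. Normal steers ran from 1.49 to 3.73 log2 CPM with a median of 2.81, degree 1/4 from 2.35 to 3.31 with a median of 2.77, and degree 1/3 from 2.32 to 3.12 with a median of 2.93. Degree 1/2 had 3.21, 2.51 and 3.80, degree 2/3 had 3.69, 2.87, 3.48 and 2.46, and degree 3/4 had 3.50. That put 6 of the 8 above the normal median, 1 above every normal steer and 4 above every lower-degree steer, while 2 were below the normal median. Counts were 15 to 52 in the higher degrees, 11 to 37 in the lower degrees and 4 to 51 in normal steers.

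miR-132 was in the upper part of the normal range in most higher-degree steers. Its log2 CPM ran from -0.72 to 2.60 in normal steers with a median of 1.49, from 0.59 to 2.16 in degree 1/4 with a median of 1.38, and from 0.32 to 2.17 in degree 1/3 with a median of 1.39. Degree 1/2 had 1.63, 2.00 and 2.41, degree 2/3 had 2.06, 1.98, 1.30 and 2.27, and degree 3/4 had 1.96. Thus 7 of 8 were above the normal median and above the median of the lower degrees. The counts were only 6 to 18 in the higher degrees, 3 to 15 in the lower degrees and 0 to 22 in normal steers.

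**Figure D1:**
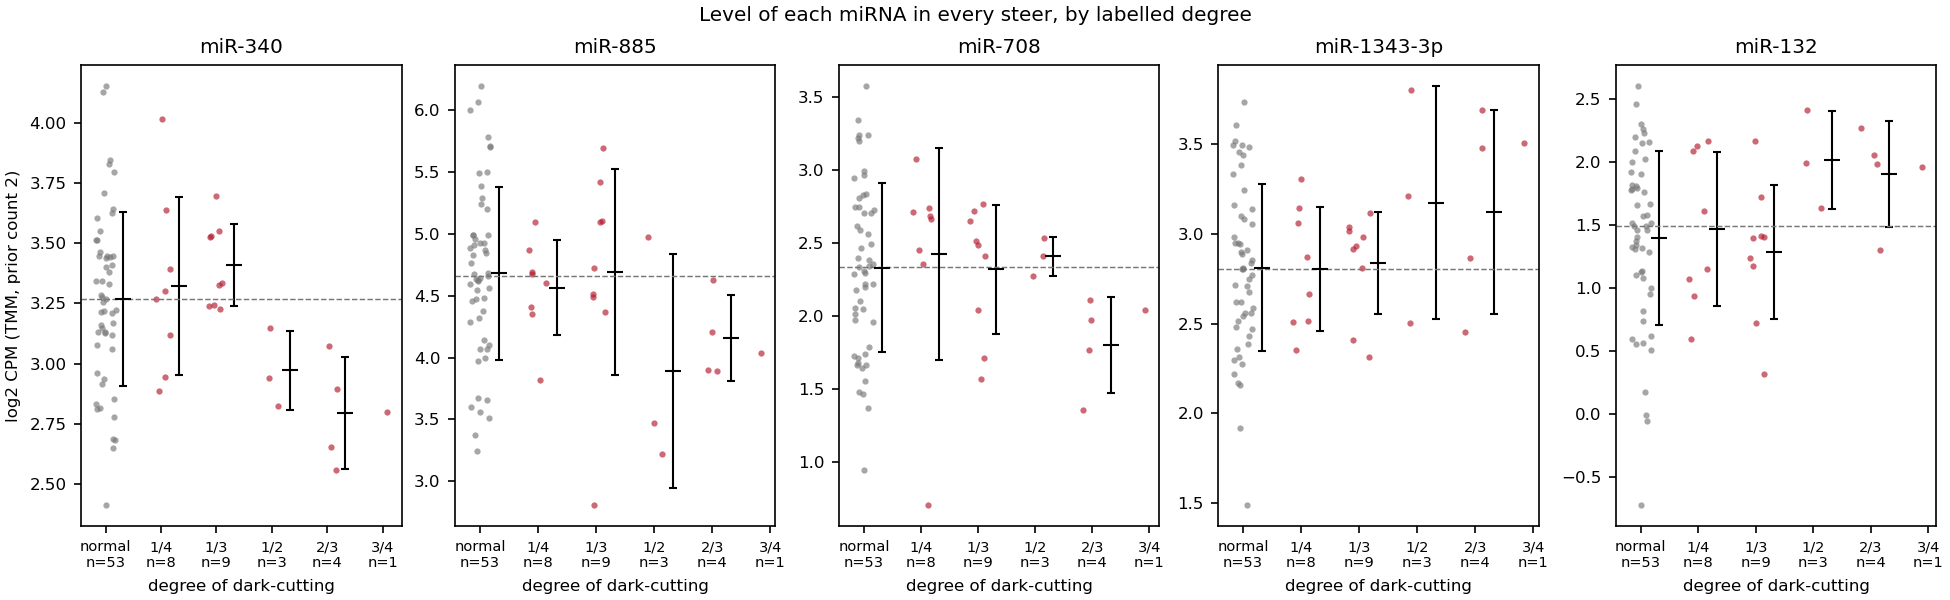
Log2 CPM of each of the 5 miRNAs (vertical axes, each with its own scale) in every steer, by labelled degree from normal to 3/4 on the horizontal axes. Points are steers, black bars the mean ± SD of groups of 3 or more, and dashed lines the normal median. All 8 steers of degree 1/2 or more are below the dashed line for miR-340 and 7 of 8 are above it for miR-132, within the spread of the 53 normal steers.

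Fitted over the 25 dark-cutting steers, the slope per unit of degree was -1.61 ± 0.47 (SE) log2 for miR-340, -1.58 ± 0.69 for miR-708 and -1.57 ± 0.73 for miR-885. It was 1.23 ± 0.55 for miR-1343-3p and 1.44 ± 0.82 for miR-132. A full unit exceeds the labelled span, so over 0.5 of a unit these slopes are folds of 0.571, 0.579, 0.581, 1.53 and 1.65 in the same order. The median slope of all 251 miRNAs in that fit was -0.10. By edgeR's quasi-likelihood test 0 of 251 (0%) passed after adjustment and 9 (3.59%) had an unadjusted p under 0.05, 4 lower (1.59%) and 5 higher (1.99%) with degree.

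The higher minus the lower degrees gave log2 fold changes of -0.57 ± 0.16 (SE) for miR-340, -0.63 ± 0.24 for miR-885, -0.41 ± 0.24 for miR-708, 0.45 ± 0.19 for miR-1343-3p and 0.63 ± 0.28 for miR-132 (n = 8 and 17). Here 0 of 251 (0%) passed and 6 (2.39%) had an unadjusted p under 0.05, 3 higher (1.2%) and 3 lower (1.2%). Ordered by p, the 5 miRNAs held places 1, 5, 6, 8 and 10 for the slope and 1, 2, 3, 5 and 12 for the higher minus the lower degrees. This is how they came to be chosen, so nothing is read from these places.

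Other miRNAs lay between them. For the slope these were miR-1260b at 2.39 ± 0.91 (SE), miR-376d at -2.31 ± 0.94, the muscle miRNA miR-206 at 0.59 ± 0.25, miR-2904 at 0.96 ± 0.44 and miR-450b at 0.99 ± 0.47. For the higher minus the lower degrees the nearest were miR-450b at 0.37 ± 0.16, miR-376d at -0.70 ± 0.32, miR-1260b at 0.65 ± 0.33 and miR-655 at 0.42 ± 0.23. miR-376d and miR-655 belong to the imprinted DLK1-DIO3 cluster.

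No single steer set the direction of a slope. With each of the 25 left out in turn, the slope ran from -1.73 to -1.44 for miR-340, from -1.80 to -1.30 for miR-885 and from -1.84 to -1.33 for miR-708. It ran from 1.04 to 1.54 for miR-1343-3p and from 1.24 to 1.82 for miR-132. Since the miRNAs were chosen on all 25 steers, kept directions are no sign of stability. Among steers numbered 600 or above the slopes were -1.63 ± 0.57 (SE), -1.59 ± 0.91, -1.34 ± 0.81, 1.04 ± 0.66 and 1.13 ± 0.95 for miR-340, miR-885, miR-708, miR-1343-3p and miR-132. Among the 8 dark-cutting steers numbered under 600 they were -1.04 ± 1.22, -0.64 ± 1.11, -1.52 ± 1.50, 2.40 ± 1.13 and 2.50 ± 1.88 in the same order.

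**Figure D2:**
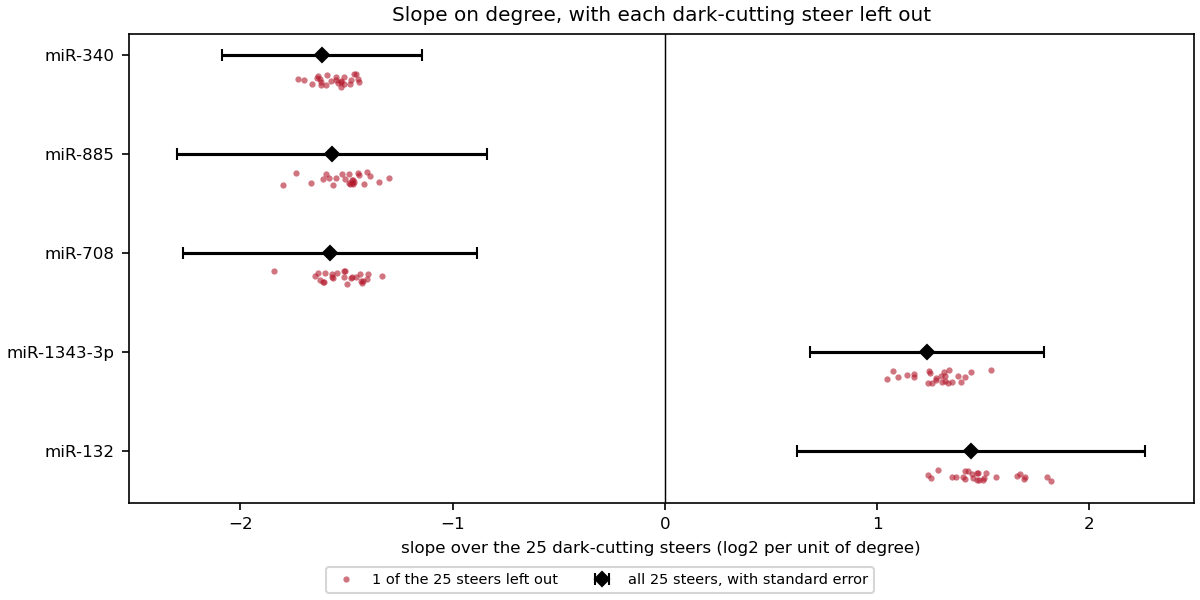
Slope on the labelled degree over the dark-cutting steers (horizontal axis, log2 per unit of degree) for each of the 5 miRNAs. Black diamonds with bars are the slopes with standard errors from all 25 steers, and red points the slopes with 1 steer left out. The left-out slopes of miR-340 stay between -1.73 and -1.44, and those of miR-132 spread from 1.24 to 1.82.

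Cell type markers were compared across the same groups. The 3 red blood cell miRNAs summed to 651 to 1057 CPM (median 878) in the higher degrees, 426 to 1311 (median 674) in the lower degrees and 325 to 3262 (median 666) in normal steers. Such a sum follows its abundant members, and the members of this list differed, so the sum is not read as a measure of red blood cells. All dark-cutting minus normal steers gave log2 fold changes of -0.86 ± 0.27 (SE) for miR-144, -0.52 ± 0.25 for miR-451 and 0.08 ± 0.09 for miR-486, none of them a call. The 5 white blood cell miRNAs summed to 62.9 to 101.6 CPM (median 73.5) in the higher degrees, 42.8 to 148 (median 71.6) in the lower degrees and 38.7 to 207 (median 86.1) in normal steers. For the 5 nerve miRNAs the sums were 229 to 480 CPM (median 378), 176 to 624 (median 347) and 179 to 623 (median 323) in the same order of groups. The 4 fibroblast miRNAs summed to medians of 4089, 4038 and 3597 CPM, the 2 endothelial ones to 5461, 5063 and 5104 CPM, and the 2 of smooth muscle and pericytes to 22820, 21065 and 25076 CPM, again in that order. For each of these lists the ranges overlapped, and the part of these cells in the differences of the 5 miRNAs was not tested.

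Set against normal steers, the higher degrees had log2 fold changes of -0.47 ± 0.15 (SE) for miR-340, -0.71 ± 0.26 for miR-885, -0.37 ± 0.24 for miR-708, 0.42 ± 0.17 for miR-1343-3p and 0.53 ± 0.26 for miR-132. The lower degrees had 0.08 ± 0.10, -0.10 ± 0.18, 0.03 ± 0.17, -0.03 ± 0.13 and -0.11 ± 0.21 in the same order. Both sets of values share the 53 normal steers. The median over the 272 miRNAs of that fit was -0.03 for the higher and -0.01 for the lower degrees, and the median absolute value was 0.12 and 0.09. In all 5 miRNAs the lower degrees were closer to normal steers than the higher degrees were. Choosing the miRNAs by a difference between degrees favours this, since the higher degrees are the smaller group. Nothing is therefore read from it.

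By degree, miR-340 was at 0.05 ± 0.14 (SE) log2 against normal steers for 1/4, 0.11 ± 0.13 for 1/3, -0.35 ± 0.23 for 1/2 and -0.55 ± 0.21 for 2/3. miR-885 was at -0.24 ± 0.26, 0.02 ± 0.24, -0.73 ± 0.42 and -0.67 ± 0.37 over the same degrees, and miR-708 at 0.13 ± 0.23, -0.07 ± 0.22, -0.03 ± 0.35 and -0.70 ± 0.35. The value of miR-708 at degree 1/2 rests on 3 steers, with a 95% interval against normal steers of -0.73 to 0.67. Degrees 1/2 and 2/3 were not compared with each other. miR-1343-3p was at -0.05 ± 0.19, -0.02 ± 0.17, 0.42 ± 0.27 and 0.36 ± 0.24, and miR-132 at 0.04 ± 0.29, -0.25 ± 0.28, 0.59 ± 0.40 and 0.49 ± 0.37. In none of the 5 did the fitted values change evenly from one degree to the next. Those at 1/4 and 1/3 lay on both sides of, or close to, those of normal steers. With standard errors of this size, even and uneven change cannot be told apart.

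Single steers weighed on degree 1/2, which has only 3. Without replicate 1 the log2 fold change of miR-885 at degree 1/2 was -1.54, and without replicate 2 it was -0.43. That of miR-1343-3p was 0.03 without replicate 3 and 0.69 without replicate 2, and that of miR-132 was 0.33 without replicate 3 and 0.80 without replicate 1. miR-708 there ran from -0.11 to 0.04. For degree 2/3 miR-340 stayed between -0.65 and -0.47 and miR-708 between -0.82 and -0.56 with each of the 4 steers left out, while miR-1343-3p was at 0.13 without replicate 1 and at 0.55 without replicate 4.

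The contrast that did not serve the choice, all 25 dark-cutting against 53 normal steers, gave no call for any of the 5. Dark-cutting steers had a median of 3.24 log2 CPM for miR-340, 4.51 for miR-885, 2.41 for miR-708, 2.93 for miR-1343-3p and 1.62 for miR-132, against 3.27, 4.66, 2.33, 2.81 and 1.49 in normal steers. The log2 fold changes were -0.08 (95% interval -0.27 to 0.12), -0.27 (-0.60 to 0.06), -0.09 (-0.38 to 0.20), 0.14 (-0.10 to 0.37) and 0.14 (-0.23 to 0.50). Their adjusted p by edgeR's quasi-likelihood test were 0.818, 0.471, 0.853, 0.690 and 0.818 over 252 miRNAs. Of the dark-cutting steers 11 of 25 were above the normal median in miR-340, 10 in miR-885, 15 in miR-708, 17 in miR-1343-3p and 13 in miR-132.

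Over all miRNAs 0 of 252 (0%) passed, and 23 (9.13%) had an unadjusted p under 0.05, 7 higher (2.78%) and 16 lower (6.35%), with none of the 5 among them. DESeq2 and limma-voom also made 0 calls, with 23 and 28 miRNAs at an unadjusted p under 0.05. The median of all 252 was -0.01, with a median absolute value of 0.08. Of all 252 the smallest adjusted p was 0.182, that of miR-1260b. Of the 5 the nearest to a call was miR-885 at an unadjusted p = 0.103 by edgeR, 55th of 252. A p that misses the threshold does not show equal levels, and the intervals above still hold a 1.42-fold higher level of miR-132 and a 1.52-fold lower one of miR-885.

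**Figure D3:**
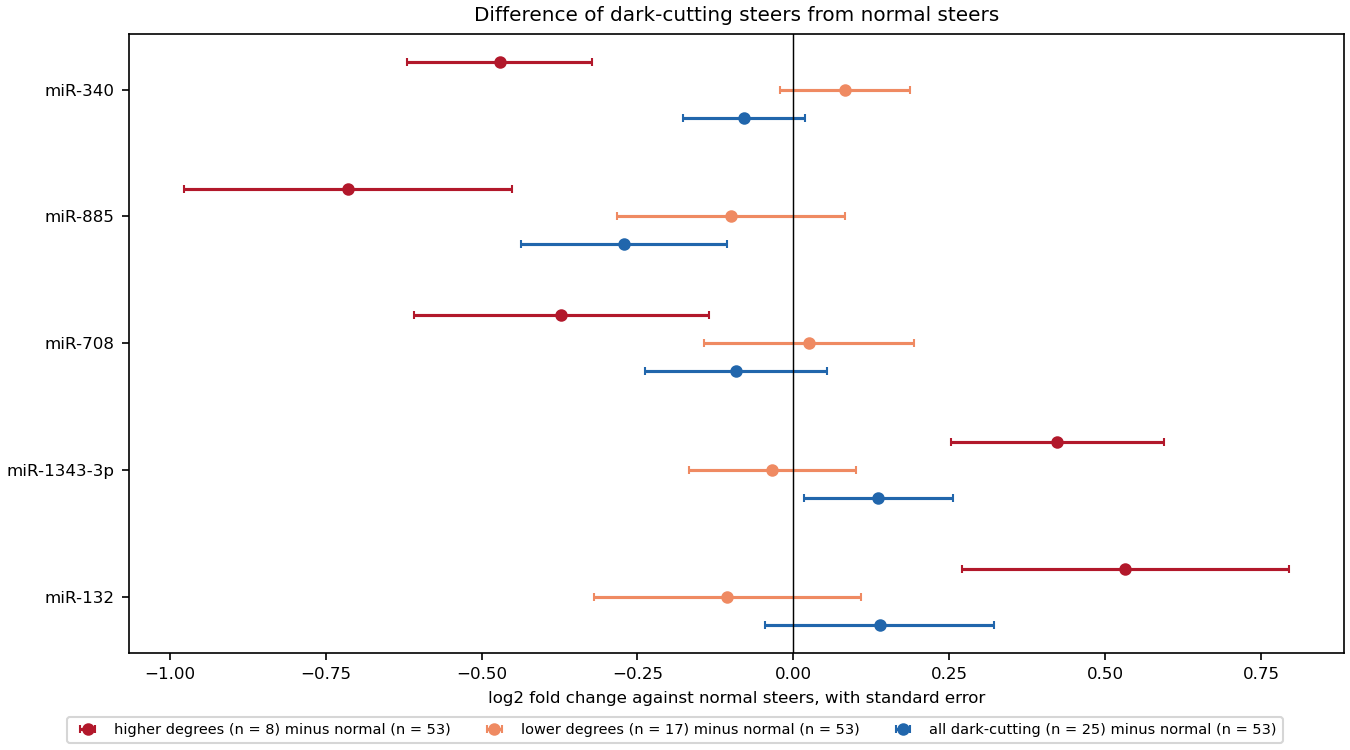
Log2 fold change against the 53 normal steers (horizontal axis) for each of the 5 miRNAs, with bars of 1 standard error, for the higher degrees (red), the lower degrees (orange) and all dark-cutting steers (blue). The red points lie at -0.71 to -0.37 for the 3 lower miRNAs and at 0.42 and 0.53 for miR-1343-3p and miR-132, and the orange points between -0.11 and 0.08. Red and orange points come from the steers that chose the miRNAs.

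In the 52 steers numbered 600 or above, dark-cutting minus normal was -0.06 ± 0.13 (SE) for miR-340, -0.19 ± 0.20 for miR-885, -0.20 ± 0.18 for miR-708, 0.18 ± 0.14 for miR-1343-3p and 0.27 ± 0.22 for miR-132. In the 26 steers numbered under 600 it was -0.09 ± 0.17, -0.37 ± 0.26, 0.13 ± 0.27, 0.08 ± 0.20 and -0.13 ± 0.33 in the same order, so miR-708 and miR-132 had opposite signs in the ranges. The test of that difference, an interaction in edgeR's fit, gave adjusted p = 0.904 for miR-132 and 0.952 for miR-708, and 0 of 252 miRNAs passed, with 10 at an unadjusted p under 0.05. Within normal steers alone, 1 of 272 miRNAs, miR-128, differed between the ranges, and none of the 5 did, the nearest being miR-885 (log2 difference -0.34 for 600 or above minus under 600, p = 0.0816, adjusted p = 0.490 by edgeR).

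The authors' deposited table lists the same contrast. In the authors' deposited table the log2 fold change was -0.07 ± 0.10 (SE) for miR-340, -0.27 ± 0.16 for miR-885, -0.09 ± 0.15 for miR-708, 0.14 ± 0.12 for miR-1343-3p and 0.15 ± 0.19 for miR-132. None of its 542 rows had an adjusted p under 0.05, and that of miR-885 was 0.689 in the authors' deposited table.

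Close relatives were too rare to follow. miR-212, processed with miR-132 from one transcript, had 13 counts in the 25 dark-cutting and 18 in the 53 normal libraries. miR-1343-5p, the other arm of the miR-1343 hairpin, had 7 and 17 counts in the same libraries. Neither passed the low-count filter. miR-28, of the seed family known to include miR-708, was looked up outside the naming rule and had a dark-cutting minus normal log2 fold change of 0.07 ± 0.07 (SE, adjusted p = 0.691 by edgeR) and a slope within dark-cutting steers of -0.02 ± 0.33.

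Whether the 5 miRNAs vary together could be asked in the 53 normal steers, which took no part in their choice. With TMM scaling no pair among them passed. Over the 10 pairs among them Spearman's rho lay between -0.22 (miR-340 with miR-708) and 0.20 (miR-1343-3p with miR-132), and the smallest adjusted p of the permutation tests was 0.566 over 1345 pairs of one of the 5 with another miRNA. With total-count scaling 1 of the 10 passed, miR-1343-3p with miR-132 (rho 0.38, adjusted p = 0.0441 by permutation test). The 3 that were lower in the higher degrees had, with TMM, rho of 0.12 (miR-340 with miR-885), -0.22 (miR-340 with miR-708) and 0.16 (miR-885 with miR-708).

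Some ties with other miRNAs did pass. Of the 1345 pairs 10 (0.743%) had an adjusted p under 0.05 by Spearman's rho, of which miR-885 held 9 of its 271 (3.32%) and miR-132 held 1 of its 271 (0.369%). By rho with TMM miR-340, miR-708 and miR-1343-3p held none, their rho running from -0.40 to 0.42. Pairs in which neither miRNA was among those followed here were not tested. Whether these shares are high, low or ordinary for miRNAs in these libraries therefore cannot be said. With scaling by total count in place of TMM 159 pairs passed by rho, among them miR-340 with miR-29d-3p (rho 0.55, adjusted p = 0.00448), miR-708 with miR-145 (rho 0.54, adjusted p = 0.00299) and miR-1343-3p with miR-139 (rho 0.69, adjusted p = 0.00299), by permutation test. Pearson's r with TMM also passed miR-708 with miR-140 (r 0.43, adjusted p = 0.0417 by permutation test). It passed miR-132 with miR-133b as well (r -0.50, adjusted p = 0.0187 by permutation test). Without the 2 steers farthest from the median of miR-708 or of miR-132, r was 0.42 and -0.31. How many of the 1345 pairs passed by r was not counted.

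miR-132 varied with miR-191, an abundant and widely expressed miRNA. Spearman's rho was 0.60 (permutation p = 1e-05, the smallest that 100000 resamples can give, adjusted p = 0.0134) and Pearson's r 0.60 (permutation p = 1e-05, adjusted p = 0.0101). Without the 2 steers farthest from the median of miR-132, r was 0.51. Spearman's coefficient was 0.61 in the 18 normal steers numbered under 600 and 0.62 in the 35 others. Next came miR-193a-5p (rho 0.46, adjusted p = 0.0572) and miR-767 (rho 0.45, adjusted p = 0.0609), which did not pass by permutation test with TMM but did with total-count scaling (rho 0.52 and 0.56, adjusted p = 0.00633 and 0.00299).

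miR-885 had its lowest rho with miR-181c, at -0.54 (permutation p = 6e-05, adjusted p = 0.0269) with Pearson's r of -0.55 (permutation p = 3e-05, adjusted p = 0.0101), or -0.54 without the 2 farthest steers. With total-count scaling that tie no longer passed (rho -0.33, adjusted p = 0.0810 by permutation test). The highest values of rho for miR-885 were with let-7a-3p, the passenger strand of let-7a, at 0.52 (permutation p = 0.00014, r 0.46 with p = 0.00051), with miR-2284y at 0.51 (p = 0.00013, r 0.51 with p = 0.00012) and with the fibroblast-linked miR-199b at 0.50 (p = 0.00016, r 0.45 with p = 0.00066). Each of these 3 had an adjusted p of 0.0307 by rho, and r without the 2 farthest steers was 0.47, 0.50 and 0.40. Within the ranges under 600 and of 600 or above, rho was -0.76 and -0.45 for miR-181c, 0.53 and 0.51 for let-7a-3p, 0.30 and 0.60 for miR-2284y, and 0.45 and 0.51 for miR-199b.

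The share of counts held by miR-1 moved with miR-885 as well. Over the 53 normal steers rho was 0.44 (permutation p = 0.00107, adjusted p = 0.0176 over 544 tests) while Pearson's r was 0.34 (permutation p = 0.0129, adjusted p = 0.137), or 0.48 without the 2 farthest steers. The 544 tests cover every tested miRNA with total count and with this share. How many of them passed was not counted, so the tie is not shown to be particular to miR-885. The other four miRNAs had rho between -0.08 and 0.17 with that share, and none of the 5 passed with total count (rho -0.25 to 0.21). In the higher degrees the miR-1 share was 82.0% to 85.8%, in the lower degrees 79.6% to 88.1% and in normal steers 72.3% to 88.6%. Its part in the ties of miR-885 was not tested.

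**Figure D4:**
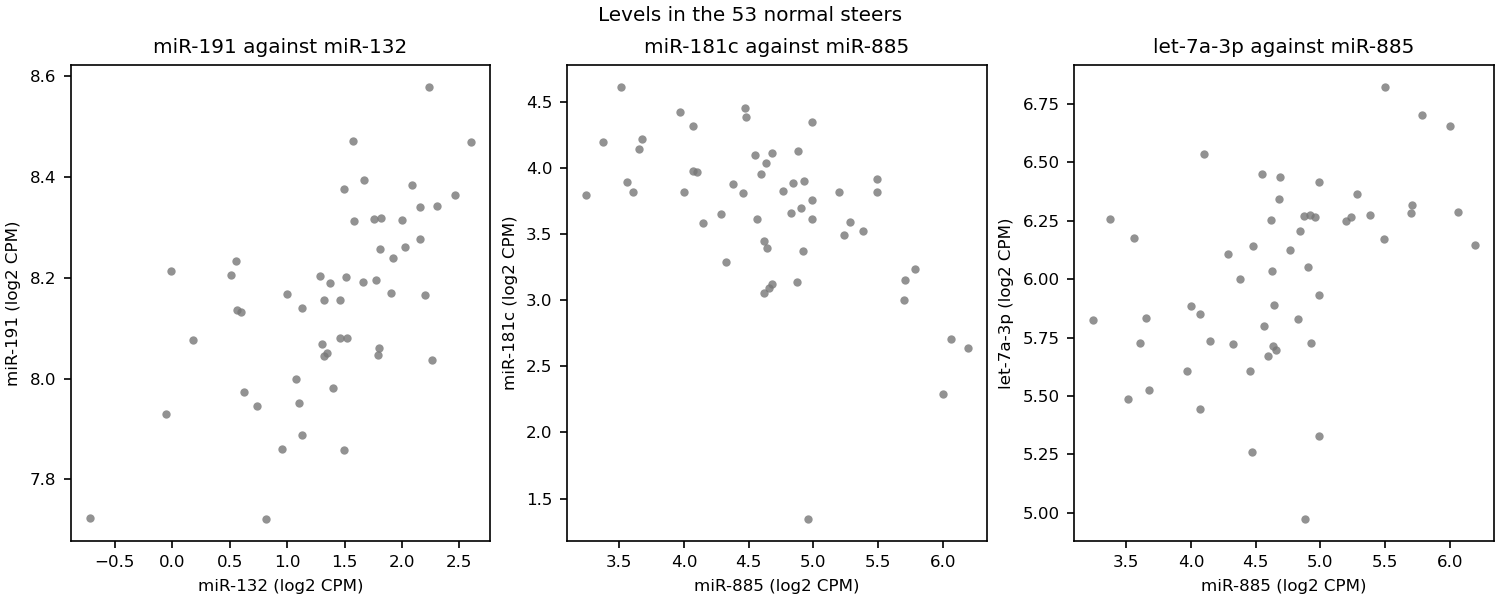
Log2 CPM of miR-191 against miR-132 (left), of miR-181c against miR-885 (middle) and of let-7a-3p against miR-885 (right), where each point is 1 of the 53 normal steers. Points rise to the right for miR-191 (rho 0.60) and let-7a-3p (rho 0.52) and fall for miR-181c (rho -0.54), each with wide scatter.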

How the data were processed

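Per the labels' protocols, total RNA of frozen biopsies went into NEXTflex small RNA libraries, and reads passed FastQC and Trimmomatic 0.32, with DESeq2 1.34.0 downstream, per the submitters' processing notes. The aligner, counter, miRNA reference and build were not given in the sources used here. Raw read counts per mature miRNA were deposited for each steer. The authors' deposited table gives mean normalized signal, log2 fold change, Wald score and p-value. A refit of dark-cutting against normal steers matched its scores within 7.55e-08.

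Counts were fitted with edgeR 4.0.16 (R 4.3.3): low-count filter, TMM scaling, robust quasi-likelihood test, Benjamini-Hochberg adjustment, threshold 0.05. Filters were filterByExpr with a minimum count of 10 (252 miRNAs), or a CPM filter with a minimum of 15 counts in all (272 miRNAs, or 251 within dark-cutting steers). The CPM filter asked at least 8 libraries for the CPM that equals 10 counts in a library of median total. Fold changes are relative to a library's other miRNAs. Log2 CPM used a prior count of 2. Correlations used 100000 permutations. Alternatives used DESeq2 1.42.0, limma-voom 3.58.1, other scaling, filters and left-out steers. Fits were tested on simulated data.

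The 5 miRNAs, the marker lists and the tests were chosen with earlier results of these data known. After a first run had been seen, TMM was moved behind the filter, edgeR's default fold change was kept over one without prior count, and DESeq2's outlier replacement was turned on. The earlier settings stand among the alternatives.

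Named beside the 5 were miRNAs of the same hairpin or transcript, the 3 highest and 1 lowest rho each in normal steers, and other miRNAs among the 8 smallest p in both contrasts within dark-cutting steers. Partners by rho not given elsewhere were miR-495 for miR-340 (-0.38) and miR-144 for miR-1343-3p (-0.40). For miR-708 they were miR-381 (-0.33) and miR-2336 (0.33). None of these pairs passed with TMM. Each title number is taken as a separate animal. Counting intervals cover counting error only.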

Additional observations from a re-analysis of the deposited data

Results flagged for a closer look

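Each of the 5 miRNAs was checked in the 3 groups of 4 to 9 steers for a steer that stands far from the others, which made 15 checks, and chance alone gives about 1 such steer in 20 groups. For miR-708, replicate 7 of degree 1/4 was at 0.71 log2 CPM from 3 counts, where the next steer of that degree was at 2.35. Without it the slope of miR-708 was -1.84, against -1.58 with all 25 steers. For miR-885, replicate 6 of degree 1/3 was at 2.81 log2 CPM from 30 counts, where the next steer of that degree was at 4.37, and it was lower than every normal steer.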

How the results depend on the processing

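In dark-cutting minus normal, total-count scaling shifted the median of all miRNAs to 0.10 and put miR-340 at 0.028 and miR-708 at 0.013. Among title numbers under 600, miR-708 was at 0.13 and miR-132 at -0.13. No adjusted p of the 5 fell below 0.307 in any setting by any tool. Without a low-count filter 2 of 741 miRNAs passed, miR-2284f and miR-2285cz. Title numbers under 600 alone moved slopes within dark-cutting steers to -1.04 for miR-340, -0.64 for miR-885, 2.40 for miR-1343-3p and 2.50 for miR-132. The higher minus the lower degrees there gave -0.39 for miR-340, -0.15 for miR-885, -0.20 for miR-708 and 0.72 for miR-1343-3p. At degree 1/2, leaving out single steers gave -1.54 to -0.43 for miR-885, 0.034 to 0.69 for miR-1343-3p and 0.33 to 0.80 for miR-132. The cause of these shifts was not tested.

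Of the correlations in normal steers, 159 of 1345 pairs passed with total count scaling and 14 with a prior count of 0.5. With total count rho was 0.022 for miR-132 with miR-133b (-0.39 with TMM), 0.021 for miR-340 with miR-708, 0.19 for miR-340 with miR-1343-3p, 0.10 for miR-708 with miR-1343-3p and 0.052 for miR-708 with miR-132. It also let 11 named pairs pass by rho that did not pass by rho with TMM. These were miR-340 with miR-29d-3p (0.55), miR-192 (0.52) and miR-30e-5p (0.45), miR-708 with miR-140 (0.50) and miR-145 (0.54), miR-1343-3p with miR-139 (0.69), miR-320a (0.57), miR-767 (0.51) and miR-132 (0.38), and miR-132 with miR-193a-5p (0.52) and miR-767 (0.56). The tie of miR-885 with miR-181c then no longer passed (rho -0.33, adjusted p = 0.0810 by permutation test), while that of miR-132 with miR-191 did (rho 0.59, adjusted p = 0.00403 by permutation test).

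Alternatives added after the data were seen were leaving out normal replicate 19, the interaction with title range, the ranges within normal steers, TMM before the filter, fold changes without prior count and DESeq2 without outlier replacement. Leaving out that steer, tried for dark-cutting minus normal, and the last 3 of these, tried in that contrast and both within dark-cutting steers, made 0 calls and kept the direction of all 5. TMM before the filter gave 24 miRNAs at an unadjusted p under 0.05 in dark-cutting minus normal and a slope of -1.55 for miR-340. No paired analysis was possible because replicate numbers only count steers within a group. Mean counts of 7.86 for miR-132 and 15.6 for miR-708 limit what can be seen in them.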
